A study of Mus musculus with 24 samples.

Results

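The mitochondrially encoded genes are the 37 genes that the mouse mitochondrial genome carries, 13 for proteins, 2 for rRNAs and 22 for tRNAs, and they were taken from a table of 55487 genes by the prefix mt- of the symbol that belongs to each Ensembl ID. The prefix rule itself uses no measured value. They were examined in tumor-infiltrating macrophages gated as CD45+, CD11b+ and F4/80+ by flow sorting. The tumors were orthotopic grafts, in C57BL/6J mice, of the mouse colon carcinoma line MC38. The groups are APC-WT tumor 1 and APC-WT tumor 2, whose cancer cells kept Apc, and APC-KO tumor 1 and APC-KO tumor 2, whose cancer cells lack this tumor suppressor, which restrains Wnt signalling. The macrophages come from the host and not from the line, the labels name no drug for any group, and the age of the mice, the number of APC-KO clones and the day of harvest are not given in the sources used here. Where 4 values are listed, the order is APC-WT tumor 1, APC-WT tumor 2, APC-KO tumor 1, APC-KO tumor 2. Each tumor gave 6 libraries, 24 in all, which the labels describe as replicates of a sample, so the unit for the genotype is the tumor (2 against 2). Libraries held 74972634 to 93568353 counts in APC-WT tumor 1, 28018638 to 46837543 in APC-WT tumor 2, 8895722 to 19328572 in APC-KO tumor 1 and 13464061 to 17196820 in APC-KO tumor 2. All 37 genes had at least 1 count in every library and passed the filters on low counts, and 14 of them (11 protein genes, both rRNA genes and the tRNA gene mt-Ts1) were among the 3941 genes treated as expressed.

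The mitochondrial genome is a small circle that is copied and transcribed inside the organelle. Both strands are read as long precursors, from which the tRNAs are cut out, and this frees the mRNAs and rRNAs that lie between them. The 13 proteins are subunits of the respiratory chain and of ATP synthase and are made on mitochondrial ribosomes, whose rRNAs are mt-Rnr1 (12S) and mt-Rnr2 (16S). All other subunits are encoded in the nucleus. In macrophages the respiratory chain supports oxidative metabolism, and its activity differs between inflammatory and alternatively activated cells.

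Of the protein genes 7 encode subunits of complex I (mt-Nd1 to mt-Nd6 and mt-Nd4l), and mt-Cytb encodes cytochrome b of complex III. There are 3 genes for subunits of complex IV (mt-Co1, mt-Co2 and mt-Co3) and 2 for subunits of ATP synthase (mt-Atp6 and mt-Atp8). In the GENCODE M21 annotation (GRCm38) mt-Nd6 lies on the reverse strand and the other 12 protein genes on the forward strand. Both rRNA genes and 14 of the 22 tRNA genes lie on the forward strand too. The genes have no introns and abut or overlap, and Nextera XT, the kit named in the labels, does not mark strand, so reads of overlapping neighbours cannot be told apart. mt-Atp8 (MT, 7766 to 7969) shares 43 bases with mt-Atp6 (7927 to 8607), mt-Nd5 and mt-Nd6 share 14 bases on opposite strands, mt-Nd4l and mt-Nd4 share 7, and mt-Ts1 (6870 to 6938, reverse strand) covers the last 3 bases of mt-Co1. The sequences below, from the GENCODE transcripts, are of the protein gene with the longest overlap, of the tRNA gene that lies over the end of mt-Co1 and of the tRNA gene with the fewest counts. Capitals mark the bases of mt-Atp8 that are also part of mt-Atp6, and the bases of mt-Ts1 that lie over the end of mt-Co1.
mt-Atp8: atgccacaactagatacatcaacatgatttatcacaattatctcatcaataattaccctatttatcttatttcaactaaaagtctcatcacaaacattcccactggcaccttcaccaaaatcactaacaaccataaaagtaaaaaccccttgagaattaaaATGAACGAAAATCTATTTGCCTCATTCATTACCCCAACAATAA
mt-Ts1: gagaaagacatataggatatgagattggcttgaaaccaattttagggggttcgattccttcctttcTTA
mt-Tr: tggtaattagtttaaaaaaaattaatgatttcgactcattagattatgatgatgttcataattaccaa

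A stretch of the nuclear genome resembles the mitochondrial one closely. On chromosome 1 of GRCm38, between 24611535 and 24616197 on the reverse strand, the annotation lists 7 pseudogenes that are near copies of mt-Co1, mt-Co2, mt-Atp6, mt-Co3, mt-Nd3, mt-Nd4l and mt-Nd4. Over the aligned bases 5 of the 7 copies had no difference from the member. The copy of mt-Co1 differed at 1 base (A1066T) and that of mt-Nd3 at 1 base (T3C), counted from 1 at the 5′ end of the mitochondrial transcript with its base first. The first 60 bases of mt-Nd3 (MT, 9459 to 9806) and of its copy Gm28438 (chromosome 1, 24612775 to 24613119) are shown with the differing base in capitals, since this single base is all that separates them over 345 aligned bases.
mt-Nd3: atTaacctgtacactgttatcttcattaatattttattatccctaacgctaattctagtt
Gm28438: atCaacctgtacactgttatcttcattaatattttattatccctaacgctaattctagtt

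Of the 7 copies, 3 carried about as many counts as the member, 2 carried more and 2 fewer. The ratio of the copy's to the member's counts, summed per tumor, was 0.996, 0.995, 1.01 and 0.997 for mt-Co2 (copy Gm28661, 681 of 684 bases aligned). It was 1.01, 1.02, 1.01 and 1.01 for mt-Atp6 (Gm10925) and 1.00, 1.01, 1.02 and 1.02 for mt-Co3 (Gm28437). For these 3 genes the tumors thus lay on the line of equal counts, in libraries whose depth differed widely. For the short complex I genes the copy had more counts than the member, with ratios of 1.57, 1.90, 2.01 and 1.99 for mt-Nd3 and 1.06, 1.14, 1.24 and 1.25 for mt-Nd4l (Gm10222). The copies of mt-Nd4 (Gm28439, 876 of 1378 bases) and mt-Co1 (Gm29216, 483 of 1545 bases) cover only part of the member, and their ratios were 0.325, 0.306, 0.257 and 0.251 and 0.204, 0.203, 0.350 and 0.317. How reads that match both places were assigned is not given in the sources used here (multi-mapped reads), so the counts of these 7 members are uncertain. By shared 25-mers, Gm13340 also held 53.7% of mt-Co1, Gm13341 53.0% of mt-Co2, Gm13339 18.1% of mt-Nd2 and Gm4076 17.4% of mt-Nd5. Cep295 held 23.3% of mt-Ty, Gm11408 14.9% of mt-Nd6, Gm11410 12.6% of mt-Cytb and Gm11407 10.3% of mt-Nd5. Gm10925, the copy of mt-Atp6, held 10.6% of mt-Atp8. All these members could thus share reads with further loci. Only annotated transcripts were searched for shared sequence. On the mitochondrial genome mt-Ts1, mt-Td, mt-Tk, mt-Atp8, mt-Tg and mt-Tr lie between the genes copied on chromosome 1. Whether the stretch on chromosome 1 holds copies of them as well was not tested, so their counts may be uncertain too.

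**Figure D1:**
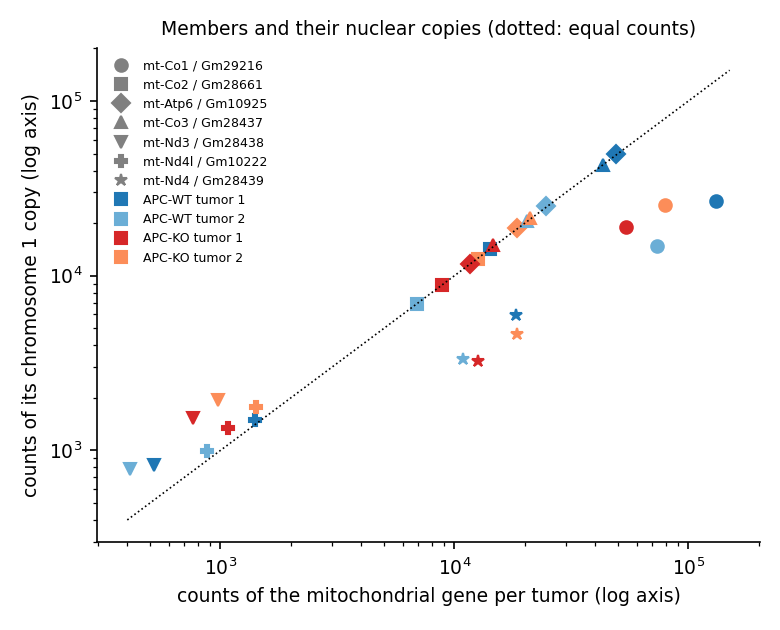
Counts of 7 mitochondrial protein genes (horizontal, log axis) against those of their copies on chromosome 1 (vertical, log axis), summed over the 6 libraries of each tumor; shapes are genes, colours are tumors and the dotted line is equality. mt-Co2, mt-Atp6 and mt-Co3 lie on the line in every tumor, mt-Nd3 lies above it (ratios 1.57 to 2.01), and mt-Co1 and mt-Nd4, whose copies are partial, lie below it.

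Mitochondrially encoded genes took a small share of the counts, and the share was higher in each APC-KO tumor than in each APC-WT tumor. Their share of all counts was 0.109% ± 0.00566 (SD, n = 6 libraries) in APC-WT tumor 1, 0.140% ± 0.00557 in APC-WT tumor 2, 0.355% ± 0.00403 in APC-KO tumor 1 and 0.414% ± 0.0110 in APC-KO tumor 2. The libraries spanned 0.104 to 0.119%, 0.134 to 0.146%, 0.352 to 0.362% and 0.404 to 0.432% in that order, so no 2 tumors overlapped. As a share of the counts of expressed genes the values were 0.133%, 0.189%, 1.08% and 1.31%. Within each genotype tumor 2 exceeded tumor 1 (exact two-sided permutation test, p = 0.00216, the smallest that 6 against 6 libraries can give, Benjamini-Hochberg adjusted over 8 tests 0.00216). Such p-values measure the spread between libraries of a tumor. Over tumors no exact test of 2 against 2 can go below 0.333, so the difference between genotypes has no test here beyond the model fit across genes. In sorted bulk samples, fewer cells of a type and less RNA per cell cannot be told apart.

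The make-up of the mitochondrial counts differed as well, and it needs no choice of scale. Protein genes made up 71.7% ± 0.691 and 68.5% ± 0.640 of the mitochondrial counts in APC-WT, and 61.2% ± 1.00 and 65.4% ± 0.496 in APC-KO (SD, n = 6). The 2 rRNA genes made up 27.4% ± 0.698, 29.9% ± 0.632, 35.6% ± 0.971 and 31.6% ± 0.505. The 22 tRNA genes together made up 0.853% ± 0.0136, 1.59% ± 0.0729, 3.24% ± 0.0981 and 2.99% ± 0.0215. Both APC-KO tumors thus had a smaller protein share and larger rRNA and tRNA shares than both APC-WT tumors, with no overlap between libraries. The tumors of a genotype differed too, in all 6 tests of these shares (exact two-sided permutation test over libraries, p = 0.00216, adjusted 0.00216). These p-values measure the spread between libraries of a tumor. The shares of a library are parts of one whole, so the tests are not independent. From tumor 1 to tumor 2 the protein share fell by 3.20 percentage points in APC-WT and rose by 4.23 in APC-KO, but the tumor numbers mark no shared condition.

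**Figure D2:**
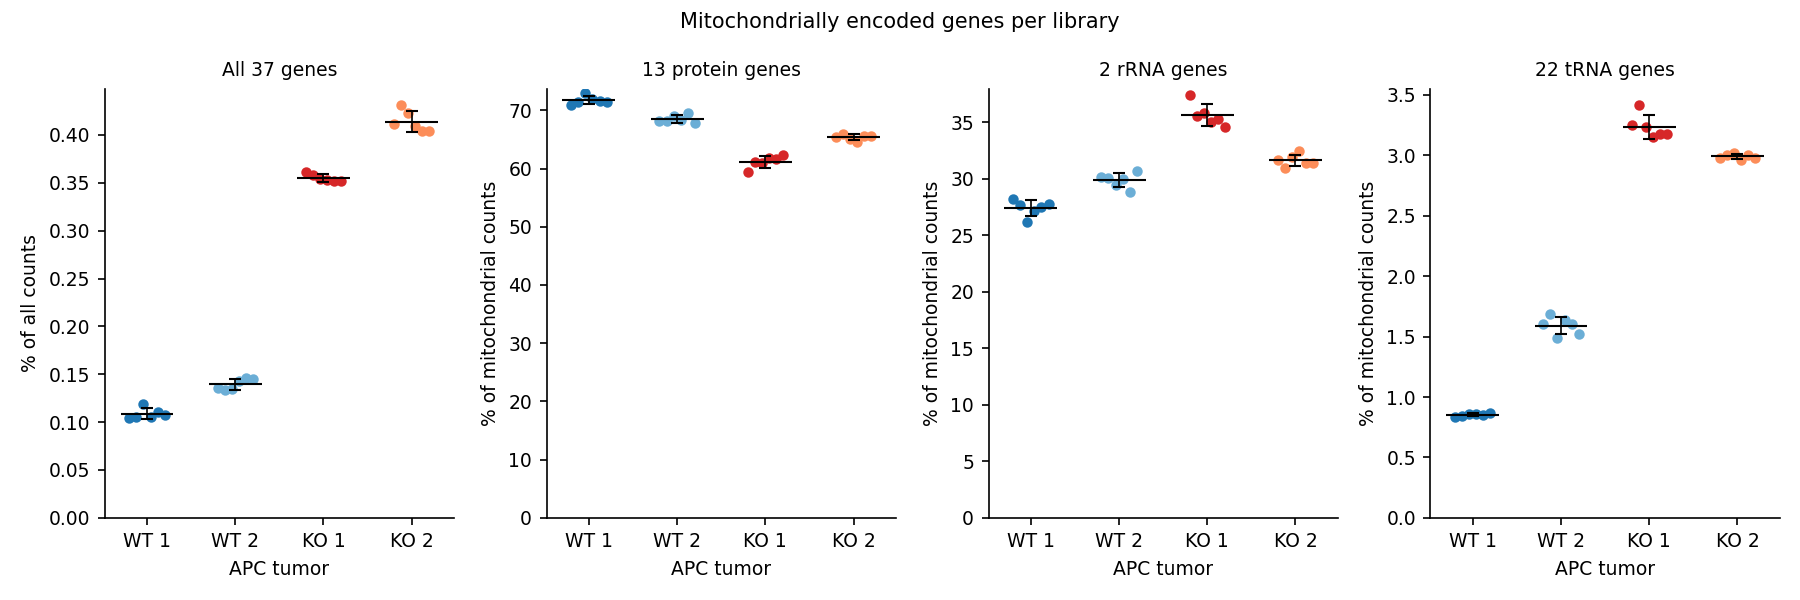
Share of all counts from the 37 mitochondrially encoded genes, and share of those counts from protein, rRNA and tRNA genes (%), per library; points are libraries, lines and bars the mean and SD of 6 libraries per tumor. The 12 APC-KO libraries lie between 0.352 and 0.432% of all counts and the 12 APC-WT libraries between 0.104 and 0.146%.

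Other features of the libraries moved along the same divide. Satellite-like repeat loci took 1.32%, 7.08%, 37.9% and 38.5% of the counts in the order of tumors given, and expressed genes took 81.7%, 73.6%, 33.1% and 31.7%. The 1972 olfactory and vomeronasal receptor genes, which have no known role in macrophages, took 0.0345%, 0.232%, 0.807% and 0.823%. The part of these differences in the mitochondrial values was not tested. Libraries of a tumor differed beyond counting error, with a chi-square per degree of freedom of 5.10 to 10.7 for the median expressed gene. All 12 macrophage markers examined lay at over 2 times the receptor-gene rate in every tumor, with a summed level of 31455 to 37932 scaled CPM (defined below) and none at 0.

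Levels are given as scaled CPM, a CPM whose library size is the TMM-scaled total of 3920 expressed nuclear genes, and between genes only per kb of transcript. The same unit gave a rate for the receptor genes of 0.0766 scaled CPM per kb in APC-WT tumor 1, 0.569 in APC-WT tumor 2, 3.92 in APC-KO tumor 1 and 3.98 in APC-KO tumor 2. Against this rate the median protein gene stood at 740, 120, 110 and 143 times, the median of the rRNA genes at 1671, 349, 312 and 319 times, and the median tRNA gene at 68.5, 32.4, 44.1 and 46.1 times. On this measure APC-WT tumor 1 was highest for all 3 classes and the other 3 tumors were closer to each other.

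The order of the protein genes by level per kb was similar in all tumors. mt-Co1, the core subunit of cytochrome c oxidase, was highest and mt-Nd3, a small subunit of complex I, lowest in each, and the rank correlation of the 13 levels was 0.99 between the APC-WT tumors, 0.98 between the APC-KO tumors and 0.82 to 0.91 across genotypes (Spearman, over genes, a description). The span from lowest to highest gene was 56.9-fold in APC-WT tumor 1 and 39.6-fold in APC-WT tumor 2, and 15.8-fold and 18.3-fold in APC-KO tumors 1 and 2. In APC-WT tumor 1 the levels fell in the order mt-Co1, mt-Atp6, mt-Co3, mt-Cytb, mt-Atp8, mt-Nd1, mt-Co2, mt-Nd5, mt-Nd4, mt-Nd6, mt-Nd2, mt-Nd4l and mt-Nd3, and the library ranges of mt-Atp8 and mt-Nd1, and of mt-Nd4 and mt-Nd5, overlapped. In APC-KO tumor 1 mt-Co3, at 677 to 733, stood next to mt-Atp6, at 601 to 685, with overlapping ranges, and mt-Nd1, mt-Co2, mt-Nd5, mt-Cytb and mt-Nd6 all lay between 389 and 607. mt-Atp8 was then below all of these, at 179 to 243.

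**Figure D3:**
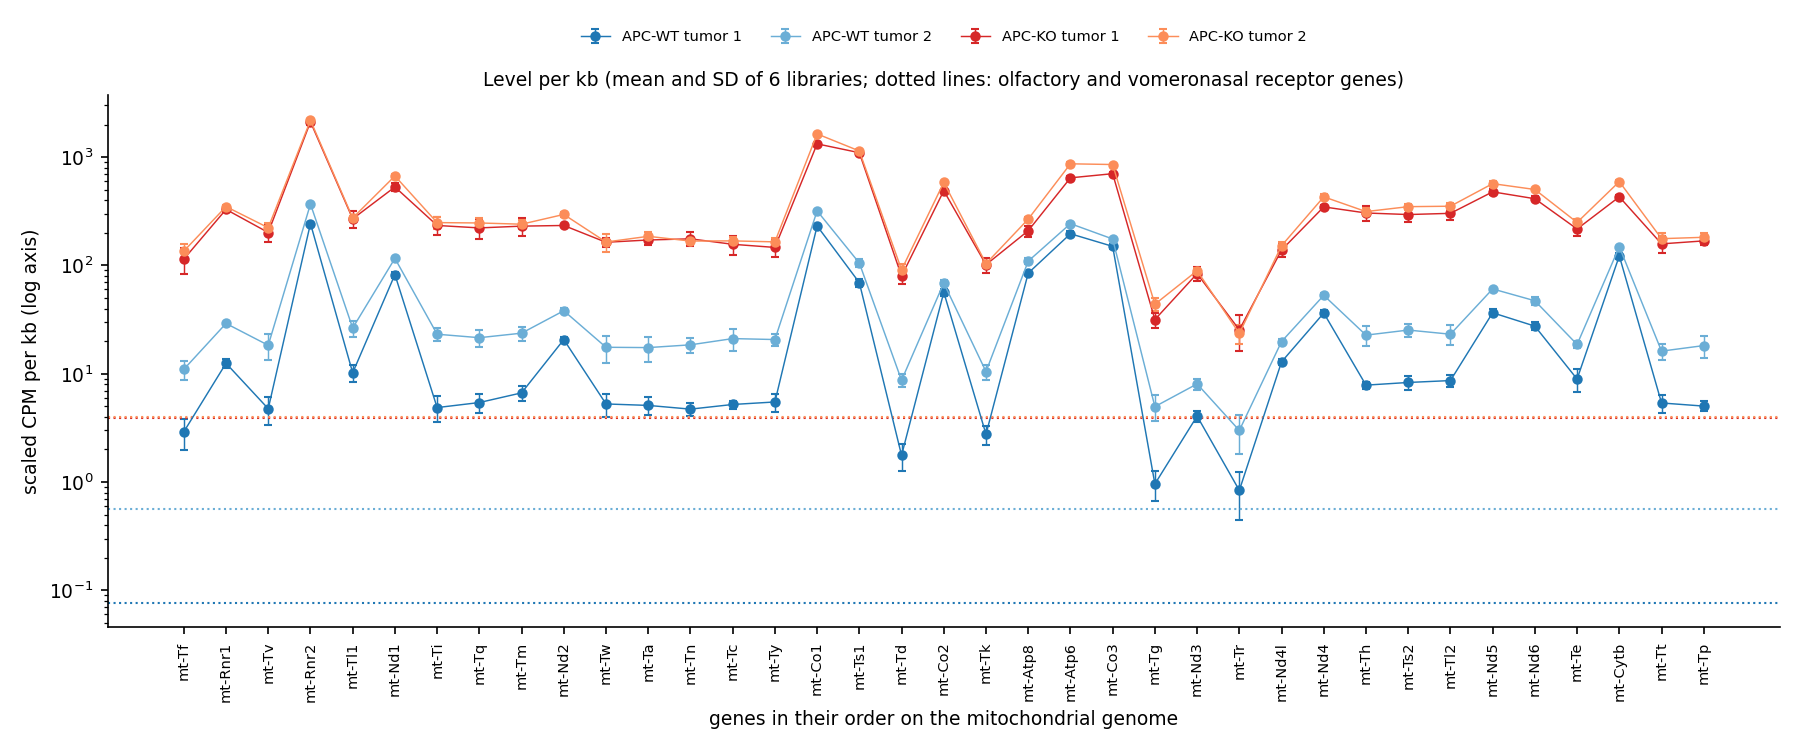
Level of each of the 37 genes in scaled CPM per kb (log axis), in their order on the mitochondrial genome; points and bars are the mean and SD of 6 libraries, colours are tumors and dotted lines the rate of the receptor genes in the same tumor. mt-Rnr2 is highest in every tumor, mt-Co1 the highest protein gene and mt-Ts1 the highest tRNA gene, and the receptor-gene rate rises from 0.0766 in APC-WT tumor 1 to 3.98 in APC-KO tumor 2.

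In the comparison of genotypes all 13 protein genes were called higher in APC-KO when libraries were scaled to expressed nuclear genes (median log2 change 3.15), whereas 0 were called and 12 of 13 had a negative change (median -0.82) with TMM over all genes. The first count stands against 56.7% of all 53705 genes tested called higher, 29.8% of expressed nuclear genes called higher and a median change of 0.005 for the latter. The receptor genes had a median change of 3.60 on the same scale, and 1129 of the 1965 tested were called higher. With TMM over all genes, 0% of all genes were called in either direction by edgeR, the protein genes had adjusted p-values of 0.0974 or more, and 1 of the 13 had an unadjusted p under 0.05. On that scale the median expressed nuclear gene was at -4.02, below the median protein gene. In DESeq2 and limma-voom, scaled to expressed nuclear genes, all 13 were called higher as well, as were 74.3% and 81.3% of all genes tested.

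The smallest changes were those of ATP synthase and cytochrome b. mt-Atp8, a small subunit that anchors ATP synthase, had lowest, median and highest levels of 79.6, 85.0 and 90.5 scaled CPM per kb over the libraries of APC-WT tumor 1 and 98.3, 110.0 and 118 in APC-WT tumor 2. In APC-KO tumors 1 and 2 it had 179, 207 and 243 and 252, 266 and 287. The APC-KO libraries were thus all above the APC-WT libraries, with a log2 change of 1.33 ± 0.34 (SE) and an adjusted p of 0.0129. This call was lost without APC-KO tumor 1 (log2 change 1.49, adjusted p = 0.0950) and without APC-KO tumor 2 (1.14, adjusted p = 0.313), with changes of similar size. In each of these fits 11.7% of all genes were called higher.

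mt-Atp6, the subunit through which protons pass, had levels of 188, 191 and 219 in APC-WT tumor 1 and 232, 243 and 252 in APC-WT tumor 2, against 601, 644 and 685 in APC-KO tumor 1 and 827, 872 and 922 in APC-KO tumor 2. Its log2 change was 1.83 ± 0.17 (SE) with an adjusted p of 0.000167. Cytochrome b, the electron-carrying core of complex III, behaved alike in size: mt-Cytb had 118, 120.3 and 136 and 145, 148 and 153 in APC-WT, against 398, 434 and 447 and 568, 604 and 605 in APC-KO. It changed by 1.96 ± 0.17 (SE) (adjusted p = 0.000141). For both genes, as for mt-Atp8, the libraries of the genotypes did not overlap. The share of all genes without such overlap was not counted. When single tumors of different genotype were compared over libraries on this scale, 91.3 to 92.6% of all genes were called higher. Of the 3920 expressed nuclear genes, 1556 to 1705 were called higher in the same comparisons. These are counts of calls and not of genes without overlap, so the lack of overlap cannot be read as particular to these genes.

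The 3 complex IV genes had intermediate changes. mt-Co1 had levels of 226, 229 and 249 in APC-WT tumor 1, 311, 316 and 331 in APC-WT tumor 2, 1284, 1324 and 1387 in APC-KO tumor 1 and 1592, 1622 and 1690 in APC-KO tumor 2, and changed by 2.48 ± 0.15 (SE) (adjusted p = 4.15e-05). mt-Co3 changed by 2.30 ± 0.14 (SE) and mt-Co2, the subunit that receives electrons from cytochrome c, by 3.15 ± 0.16 (SE). Of the 3, mt-Co2 had the lowest level in every tumor, at 52.7 to 65.5 in APC-WT tumor 1 and 566 to 622 in APC-KO tumor 2.

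The 7 complex I genes had changes from 2.63 to 3.89. mt-Nd5, a proton-pumping subunit, had 33.2, 35.5 and 40.0 in APC-WT tumor 1, 59.3, 60.6 and 63.3 in APC-WT tumor 2, 436, 474 and 523 in APC-KO tumor 1 and 537, 568 and 611 in APC-KO tumor 2. Its change was 3.47 ± 0.22 (SE) (adjusted p = 4.15e-05). mt-Nd6, the protein gene of the reverse strand, had 24.8, 27.4 and 30.4, 43.4, 46.4 and 54.1, 389, 410.1 and 439 and 473, 501 and 528 in the same order and changed by 3.66 ± 0.26 (SE). In both genes APC-WT tumor 2 lay above APC-WT tumor 1 and both APC-KO tumors lay far above either. mt-Nd3 had the largest change and the least precise, 3.89 ± 0.63 (SE), from 522 and 411 counts in APC-WT, against 764 and 980 in APC-KO. The changes of the remaining members were 2.63 for mt-Nd1, 3.16 for mt-Nd4, 3.19 for mt-Nd4l and 3.23 for mt-Nd2, and all 7 had adjusted p-values of 0.00206 or less. Under TMM over all genes the log2 change of mt-Nd3 was 0.15 and those of the other 6 were negative, from -1.26 for mt-Nd1 to -0.14 for mt-Nd6.

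**Figure D4:**
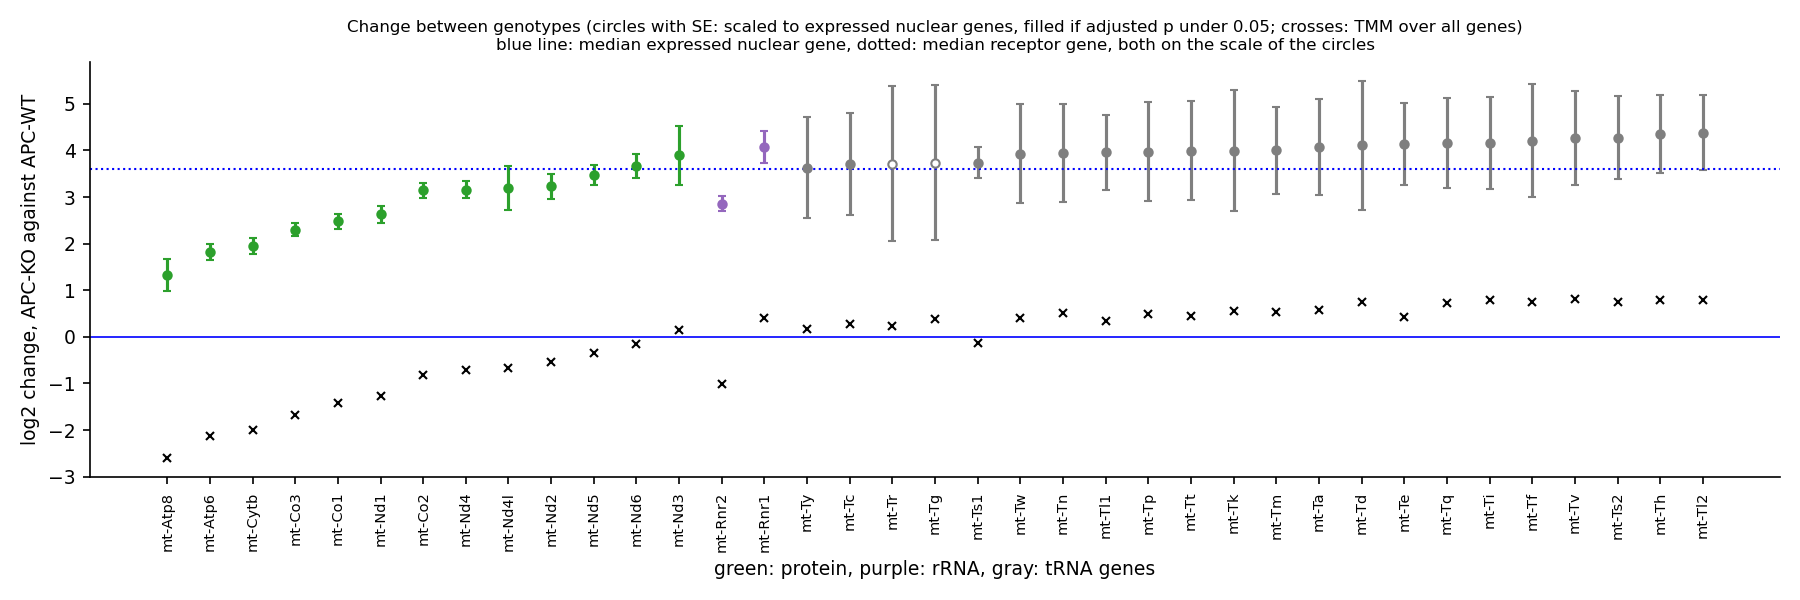
Log2 change of each gene, APC-KO against APC-WT, for protein (green), rRNA (purple) and tRNA genes (gray); circles with SE are scaled to expressed nuclear genes and filled where the adjusted p is under 0.05, crosses are TMM over all genes. The circles run from 1.33 for mt-Atp8 to 4.38 for mt-Tl2 around the dotted line of the median receptor gene (3.60), and the crosses of all protein genes but mt-Nd3 lie below 0.

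Among themselves the protein genes were redistributed between genotypes, which the scale does not touch. As a share of protein-gene counts mt-Cytb took 13.5% ± 0.158 and 12.1% ± 0.231 (SD, n = 6) in APC-WT and 7.82% ± 0.298 and 8.67% ± 0.266 in APC-KO. mt-Atp6 took 12.8% ± 0.191 and 11.8% ± 0.216 (SD, n = 6) in APC-WT and 6.97% ± 0.257 and 7.53% ± 0.167 in APC-KO. Both genes thus took a smaller share in every APC-KO library than in every APC-WT library, as did mt-Atp8 with 1.66% ± 0.0512 and 1.59% ± 0.0902 (SD, n = 6) in APC-WT and 0.678% ± 0.0739 and 0.697% ± 0.0364 in APC-KO. In the other direction, mt-Nd5 took 6.40% ± 0.317 and 7.89% ± 0.132 (SD, n = 6) in APC-WT and 13.9% ± 0.918 and 13.2% ± 0.408 in APC-KO. The share of mt-Nd6 was 1.37% ± 0.0833 and 1.74% ± 0.109 (SD, n = 6) in APC-WT and 3.41% ± 0.169 and 3.33% ± 0.103 in APC-KO. The shares of mt-Nd5 and mt-Nd6 were larger in every APC-KO library than in every APC-WT library. The same held for mt-Nd2, mt-Nd3, mt-Nd4, mt-Nd4l and mt-Co2, while the share of mt-Co3 was smaller in every APC-KO library. Such a separation is thus not particular to single genes, and among the 13 protein genes only mt-Nd1 and mt-Co1 lacked it. mt-Co1 took 34.4% ± 0.501 and 35.1% ± 0.343 (SD, n = 6) in APC-WT and 32.6% ± 0.847 and 32.3% ± 0.712 in APC-KO, with overlap between libraries of the genotypes. Tested with the summed counts of the 13 protein genes as library size, mt-Nd6 was higher (log2 change 1.11, adjusted p = 0.00772) and mt-Atp8 lower (-1.25, adjusted p = 0.0211), on a scale on which 2% of all genes were called higher and 14.4% lower. The other 11 were not called, mt-Nd5 among them (0.92, adjusted p = 0.0603).

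Changes were also fitted with an offset for transcript length, taken from expressed nuclear genes. With it 11 of the 13 protein genes were called higher, mt-Atp8 was called lower (-0.97, adjusted p = 0.0258) and mt-Atp6 was not called (0.44, adjusted p = 0.157), against 28.4% of the genes tested called higher and 21.4% lower. The median change of the protein genes was then 1.76, and the largest was 3.26, for mt-Nd5. Both rRNA genes stayed higher, at 3.01 for mt-Rnr1 and 2.46 for mt-Rnr2.

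The 2 rRNA genes rose unequally. mt-Rnr2, the 16S rRNA of the large ribosomal subunit, had levels of 237, 244 and 250.3 scaled CPM per kb in APC-WT tumor 1, 359, 368 and 385 in APC-WT tumor 2, 1971, 2088 and 2356 in APC-KO tumor 1 and 2104, 2189 and 2246 in APC-KO tumor 2. It was called higher in APC-KO, with a log2 change of 2.85 ± 0.16 (SE) and an adjusted p of 3.16e-05, and its change was -1.01 (adjusted p = 0.632) with TMM over all genes. mt-Rnr1, the 12S rRNA of the small subunit, had 11.3, 12.2 and 14.8, 28.4, 29.1 and 30.2, 315, 325 and 359 and 322, 355 and 363 in the same order. It changed by 4.07 ± 0.33 (SE) (adjusted p = 0.000116), and by 0.41 (adjusted p = 0.721) with TMM over all genes. The share of mt-Rnr1 in the rRNA counts was 3.00% ± 0.258 and 4.55% ± 0.130 (SD, n = 6) in APC-WT and 8.57% ± 0.163 and 8.81% ± 0.357 in APC-KO, so that it was larger in every APC-KO library than in every APC-WT library. Scaled to the 13 protein genes, mt-Rnr1 was called higher (1.56, adjusted p = 4.08e-05) and mt-Rnr2 was not (0.31, adjusted p = 0.614).

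The tRNA genes, 59 to 75 bases long, had few counts. Their sums per tumor ranged from 21 to 1760 in APC-WT tumor 1, 30 to 1075 in APC-WT tumor 2, 44 to 2025 in APC-KO tumor 1 and 50 to 2477 in APC-KO tumor 2, with mt-Ts1 highest and mt-Tr lowest each time. When scaled to expressed nuclear genes 20 of 22 were called higher in APC-KO (median log2 change 4.00, range 3.63 to 4.38), and 0 were called (median 0.52, 7 with an unadjusted p under 0.05) with TMM over all genes. On the first scale 56.7% of all genes were called higher, and the median change was 3.58 over all genes and 3.60 over the receptor genes, close to that of the tRNA genes. The exceptions were mt-Tg (adjusted p = 0.0674) and mt-Tr (adjusted p = 0.0686). All 22 were called in DESeq2 and limma-voom, where the background was 74.3% and 81.3%. Leaving out APC-KO tumor 1 left 2 calls and leaving out APC-KO tumor 2 left 1, against 11.7% of all genes in either fit. With the length offset 1 was called, mt-Ts1, but only 3 expressed nuclear genes are as short as 100 bases, so the offset rests on few genes at that length.

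mt-Ts1, a tRNA for serine, stood apart from the other tRNA genes. Its levels were 61.9, 70.4 and 79.3 scaled CPM per kb in APC-WT tumor 1, 91.2, 107 and 116 in APC-WT tumor 2, 1027, 1091 and 1206 in APC-KO tumor 1 and 1087, 1142 and 1187 in APC-KO tumor 2. It lies on the reverse strand, with the 3 bases TTA printed above over the end of mt-Co1, the protein gene with the highest level. How reads that reach into a gene this short from its neighbours were counted is not given in the sources used here. Its change of 3.74 ± 0.33 (SE) had an adjusted p of 0.000155, the smallest of the tRNA genes, and turned to -0.13 with TMM over all genes.

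The next tRNA genes by level were mt-Tl2, mt-Ts2, mt-Th, mt-Tl1 and mt-Ti. mt-Tl2, a tRNA for leucine, had 7.05, 8.62 and 10.4 and 16.5, 23.4 and 30.9 in APC-WT, against 256, 307 and 345 and 308, 354 and 378 in APC-KO. It had the largest change, 4.38 ± 0.80 (SE) (adjusted p = 0.00321). mt-Th, for histidine, changed by 4.35 ± 0.85 (SE), mt-Ts2, for serine, by 4.28 ± 0.88 (SE), mt-Tl1, for leucine, by 3.96 ± 0.80 (SE), mt-Ti, for isoleucine, by 4.16 ± 0.99 (SE), and mt-Te, for glutamate, by 4.13 ± 0.88 (SE). mt-Tr, the tRNA for arginine that lies between mt-Nd3 and mt-Nd4l, had 0.518, 0.755 and 1.61, 1.87, 2.63 and 5.14, 16.2, 23.4 and 38.4 and 17.9, 23.6 and 31.3 in the 4 tumors, from 2 to 11 counts a library. It stood at 11.0, 5.21, 6.28 and 5.88 times the receptor-gene rate, the lowest of all members. The 14 tRNA genes of the forward strand had a median change of 4.05 and the 8 of the reverse strand 3.96, and no test was made between them.

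APC-KO tumors were also compared singly with APC-WT tumors over libraries, in 4 pairs (APC-KO tumor 1 with each APC-WT tumor in turn, then APC-KO tumor 2 likewise), where p-values measure the spread between libraries and the pairs share tumors. With libraries scaled to expressed nuclear genes all 37 members were higher in all 4 pairs, whereas with TMM over all genes protein genes went both ways. On the first scale 92.4%, 91.3%, 92.6% and 91.7% of all genes were called higher in these pairs, so the count of members says little beyond the background. The median changes of the protein genes were 3.11 and 2.61 for APC-KO tumor 1 and 3.37 and 2.94 for APC-KO tumor 2, against a median over all genes of 5.17 and 2.77, and 5.18 and 2.78. For the tRNA genes they were 5.07 and 3.29, and 5.16 and 3.40. The choice of the APC-WT tumor thus moved the tRNA values more than the protein values. With TMM over all genes 11, 6, 9 and 5 protein genes were called lower in the 4 pairs and 1, 6, 2 and 7 higher, and 21, 19, 21 and 20 tRNA genes were called higher. Of all genes, 62.7%, 29.7%, 62.9% and 29.4% were then called higher and 28.2%, 25.6%, 28.2% and 25.5% lower.

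Between the APC-WT tumors every member was higher in tumor 2 when scaled to expressed nuclear genes, and all 13 protein genes were lower with TMM over all genes. The 37 calls stand against 80.4% of the 45451 genes tested and 25.7% of expressed nuclear genes, and the median over all genes was 1.98. The protein genes changed least, with log2 changes from 0.23 for mt-Co3 to 0.98 for mt-Nd3 and a median of 0.50. mt-Rnr2 changed by 0.60 and mt-Rnr1 by 1.22. The tRNA genes had a median of 1.83, from 0.60 for mt-Ts1 to 2.28 for mt-Tg. With TMM over all genes 13 tRNA genes were higher and 1 was lower, where 46.3% of all genes were called higher and 27.3% lower.

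Between the APC-KO tumors protein genes were called higher in tumor 2 and rRNA and tRNA genes were not. With libraries scaled to expressed nuclear genes 11 of 13 protein genes were higher, and 0 of 2 rRNA and 0 of 22 tRNA genes were called. Of the background 1.38% of all genes tested and 9.39% of expressed nuclear genes were called higher, and the median over all genes was 0.02. The largest changes were those of mt-Cytb, 0.47 ± 0.04 (SE) (adjusted p = 6.57e-10), and mt-Atp6, 0.43 ± 0.04 (SE) (adjusted p = 3.87e-08). In the levels given above all 6 libraries of APC-KO tumor 2 were higher than all 6 of APC-KO tumor 1 for both genes, and for mt-Co1, which changed by 0.30 ± 0.03 (SE). The same held for every other protein gene that was called. The share of all genes without overlap between these tumors was not counted. The 2 protein genes not called were mt-Nd3 (0.09, adjusted p = 1.00) and mt-Nd4l (0.13, adjusted p = 0.925), those with the fewest counts. mt-Rnr2 had 0.04 ± 0.03 (SE) and mt-Rnr1 0.09 ± 0.05 (SE), with adjusted p-values of 0.943 and 0.851, and 0 rRNA and 0 tRNA genes had an unadjusted p under 0.05 in edgeR. With TMM over all genes 9 protein genes were called, against 1.01% of all genes, and no sign changed among the protein genes. Whether the change of protein genes differs from that of the rRNA genes was tested only through their shares in the mitochondrial counts, given above.

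**Figure D5:**
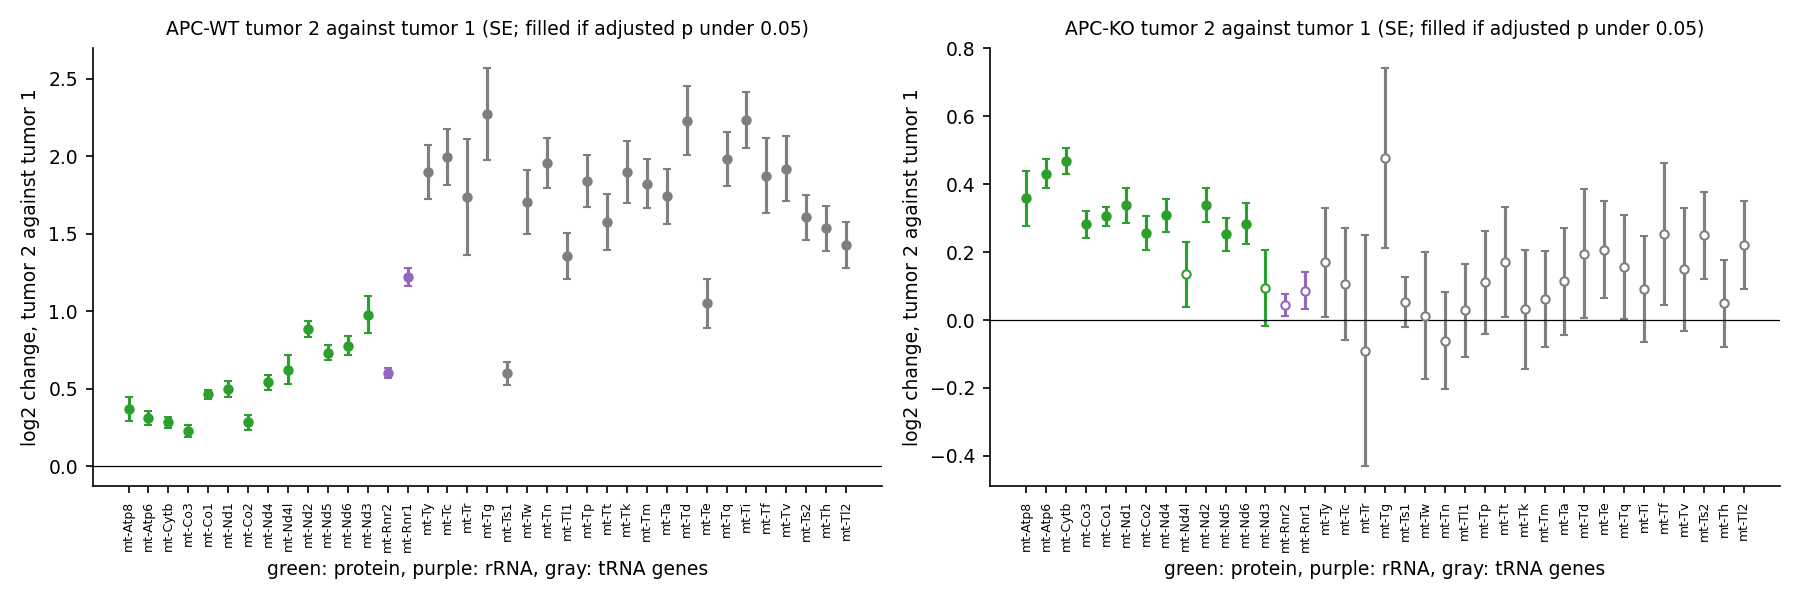
Log2 change of each gene in tumor 2 against tumor 1 of the same genotype, scaled to expressed nuclear genes, for APC-WT (left) and APC-KO (right); bars are SE, filled circles have an adjusted p under 0.05, and colours are as for the genotype plot. In APC-WT every circle is filled and tRNA genes reach 2.28, while in APC-KO the 11 filled circles are protein genes between 0.25 and 0.47.

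The nuclear partners of these genes were counted from lists of subunits and factors. When scaled to expressed nuclear genes, 30 of 31 expressed nuclear subunits of complex I were called higher in APC-KO (median log2 change 1.48), 7 of 9 of complex III (0.92), 10 of 10 of complex IV (1.59), 13 of 15 of ATP synthase (1.49) and 5 of 5 mitochondrial ribosomal proteins and factors (1.41), and none of these was lower, but with TMM over all genes 0 were called and all 5 medians were negative. The background was the 29.8% of expressed nuclear genes called higher. These medians are below that of the mitochondrial protein genes (3.15). With the length offset 18 complex I genes were higher and 1 lower, 5 and 1 of complex III, 5 and 0 of complex IV, 9 and 0 of ATP synthase, and 5 and 0 of the ribosome list. In that fit 28.4% of the genes tested were called higher and 21.4% lower.

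Over the whole lists, with genes below the limit for expressed genes, 34 of 36 were called higher for complex I, 7 of 9 for complex III, 11 of 11 for complex IV, 14 of 16 for ATP synthase and 19 of 23 for the ribosome list, against 56.7% of all genes. The 4 with the smallest p are given for each whole list, with the change ± SE. For complex I they were Ndufb7 (2.44 ± 0.16), Ndufa2 (2.35 ± 0.17), Ndufb2 (2.62 ± 0.22) and Ndufs7 (1.53 ± 0.16). For complex III they were Uqcrq (2.23 ± 0.17), Uqcr11 (2.42 ± 0.19), Uqcr10 (2.03 ± 0.19) and Uqcrh (1.86 ± 0.23). Complex IV was led by Cox4i1 (1.72 ± 0.13), Cox6a1 (1.61 ± 0.14), Cox6b1 (1.63 ± 0.16) and Cox5a (1.36 ± 0.14), and ATP synthase by Atp5e (2.66 ± 0.18), Atp5l (2.36 ± 0.18), Atp5j2 (2.19 ± 0.17) and its inhibitor Atpif1 (2.07 ± 0.18). Of the ribosome list they were Mrpl23 (2.40 ± 0.19), Mrpl13 (2.02 ± 0.21) and Mrpl12 (1.67 ± 0.19), of the large subunit, and Mrps16 (2.29 ± 0.29), of the small one. Ndufb2, Atp5l, Mrpl23, Mrpl13 and Mrps16 lay below the limit for expressed genes and were not fitted with the length offset. Of the others, Cox6a1 and Cox6b1 were not called with it.

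When scaled to expressed nuclear genes, 56.7% of all genes tested were called higher in APC-KO. Of the 55 listed factors that copy, transcribe and process the mitochondrial genome, 35 were called higher and 2 lower. Those with the smallest p were Ssbp1 (1.81 ± 0.24), which binds single-stranded mitochondrial DNA, the exonuclease Rexo2 (1.12 ± 0.18), Polg2 (2.30 ± 0.37), the accessory subunit of the mitochondrial DNA polymerase, and Dguok (1.50 ± 0.26), a kinase that makes DNA precursors in the organelle. Of these 4, Rexo2 was expressed by the limit used here, as were 7 of the 55. Of the 7, 4 were called higher and 1 lower, against 29.8% and 30.6% of expressed nuclear genes. Beside Rexo2 the higher ones were the pseudouridine synthase Pus1 (1.10 ± 0.28), the nuclear receptor Esrra (0.62 ± 0.18), which drives genes of oxidative metabolism, and Hsd17b10 (0.99 ± 0.33), a subunit of the enzyme that trims tRNA 5′ ends. Lower was Pnpt1 (-0.98 ± 0.27), the polynucleotide phosphorylase that degrades mitochondrial RNA. With the length offset 3 of the 7 were higher and 0 lower, against 28.4% and 21.4% of the genes tested. Hsd17b10 (-0.03, adjusted p = 0.868) and Pnpt1 (-0.54, adjusted p = 0.0672) were then not called. With TMM over all genes 0 of the 55 were called and all 7 had negative changes.

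Markers of other cells differed between tumors. Summed T and NK cell markers and summed erythroid and platelet markers were higher in both APC-KO tumors, as was the receptor-gene rate. The summed level of 7 neutrophil markers was 293 to 299 scaled CPM in APC-WT tumor 1, 523 to 572 in APC-WT tumor 2, 431 to 499 in APC-KO tumor 1 and 233 to 275 in APC-KO tumor 2. That of 6 fibroblast markers was 1586 to 1699, 915 to 1000, 255 to 352 and 471 to 512. That of 7 epithelial markers, which MC38 cells may carry, was 186 to 197, 639 to 655, 232 to 291 and 309 to 346. The 7 T and NK cell markers summed to 12.2 to 15.7, 29.7 to 33.1, 85.7 to 112 and 186 to 220. The 8 erythroid and platelet markers summed to 204 to 222, 91.0 to 98.0, 514 to 565 and 308 to 369. At the receptor-gene rate the sums in APC-KO tumors 1 and 2 would be 50.4 and 51.0 for the neutrophil list, 167 and 169 for the fibroblast, 59.7 and 60.4 for the epithelial, 60.9 and 61.7 for the T and NK cell and 36.3 and 36.7 for the erythroid and platelet list. Over 2 times that rate lay 5 and 4 of the neutrophil markers, 3 and 4 of the fibroblast, 7 and 7 of the epithelial, 2 and 4 of the T and NK cell and 4 and 5 of the erythroid and platelet markers in these tumors. In APC-WT tumors 1 and 2 the numbers were 7 and 5 (neutrophil), 6 and 6 (fibroblast) and 7 and 7 (epithelial). They were 7 and 5 (T and NK cell) and 6 and 2 (erythroid and platelet). At the receptor-gene rate the sums there would be 1.19 and 8.83 (T and NK cell) and 0.708 and 5.26 (erythroid and platelet). For the neutrophil, fibroblast and epithelial lists they would be 0.983 and 7.30, 3.26 and 24.2, and 1.16 and 8.66, in that order. No marker of these lists was at 0 in any tumor, and the part of these cells in the mitochondrial values was not tested.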

How the data were processed

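RNA of sorted tumor macrophages was measured in 24 libraries. The deposited values are raw counts, 1 whole number for each of 55487 Ensembl genes and each library. The submitters' processing notes name the build mm9 and the tools HISAT2, StringTie and bcl2fastq (2.20.0); roles, settings, the strand setting of the counting and the treatment of multi-mapped reads are not given in the sources used here. GENCODE M21 (GRCm38) gave names, lengths and positions, and 55141 IDs had a symbol.

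A gene counted as expressed with a CPM of 10 or more (mean of tumors) and 10 or more times the rate per kb of 1972 receptor genes (1407 Olfr and 565 Vmn), without 12 satellite-like loci (0.25 or more of their 15-mers in Gm10800). The TMM-scaled total of the 3920 expressed nuclear genes, members and their chromosome 1 copies left out, was the library size. In R 4.3.3 edgeR 4.0.16 compared 2 against 2 tumor sums by the quasi-likelihood test over 53705 genes passing filterByExpr, and libraries with a mean per tumor over 45451 genes, with Benjamini-Hochberg adjustment at 0.05. Adjusted p-values are edgeR's unless another tool is named, and SE was taken from the change and its F statistic. Alternatives were TMM over all genes, other library sizes, a length offset (loess, span 0.5, centred on expressed nuclear genes), DESeq2 1.42.0, limma 3.58.1, no filter, each tumor or replicate left out and replicate blocks. Shares were tested in Python 3.11.15 (scipy 1.17.1) and scripts were checked on simulated data. The labels do not say whether the 6 libraries of a tumor are separate extractions, so p-values over libraries may measure technical spread. 

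All protein and rRNA genes are named, and of the tRNA genes the 6 with the highest level per kb and up to 6 of the called ones with the smallest p; mt-Tg, mt-Tr, Pus1, Esrra, Hsd17b10 and Pnpt1 were named after their values were seen. Of each list of partners up to 4 called genes with the smallest p are named. Members and lists were chosen with earlier results of these data known.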

Additional observations from a re-analysis of the deposited data

Results flagged for a closer look

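Among 104 groups of 6 libraries examined, 7 held a library that stood away from the other 5 by more than the 95% limit of Dixon's test, and chance gives this in about 5% of groups. In 5 of the 7 it was replicate 3 of APC-WT tumor 1, the deepest library of the series, and in each of them it was the highest. There mt-Co1 had 384.8 scaled CPM against 348.6 to 355.2 in the other libraries of the tumor, and mt-Cytb 155.6 against 134.7 to 139.7. In the same library mt-Atp6 had 149.4 against 127.8 to 135.3, mt-Nd4 56.1 against 48.0 to 50.7 and mt-Co2 44.8 against 36.1 to 38.4. The share of all counts from mitochondrially encoded genes was also highest in this library of the tumor, at 0.119%. In APC-WT tumor 2, mt-Nd2 was high in replicate 1, with 43.6 against 37.6 to 39.8, and mt-Nd4l was low in replicate 6, with 5.18 against 5.85 to 6.20. None of these libraries reached the range of the other genotype.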

How the results depend on the processing

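Within a genotype, calls rest on libraries and not on tumors, and the genotype comparison rests on 2 tumors a side, so it cannot separate genotype from tumor. With TMM over all genes 12 of 13 protein genes, 1 of 2 rRNA genes and 1 of 22 tRNA genes turned from higher to lower between genotypes. The cause of each change below was not tested.

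With TMM over all genes, 0 protein, 0 rRNA and 0 tRNA genes were called between genotypes, with median changes of -0.82, -0.30 and 0.52. Single genes then turned negative: mt-Rnr2 -1.01, mt-Nd1 -1.26, mt-Nd2 -0.55, mt-Co1 -1.43, mt-Co2 -0.82, mt-Atp8 -2.60, mt-Atp6 -2.13, mt-Co3 -1.67, mt-Nd4l -0.66, mt-Nd4 -0.72, mt-Nd5 -0.35, mt-Nd6 -0.14, mt-Cytb -2.002 and mt-Ts1 -0.13. On that scale 0 genes of each list of nuclear partners were called. In APC-WT tumor 2 against 1, TMM over all genes gave 0 protein genes higher and 13 lower, 0 rRNA genes and 13 tRNA genes higher, with mt-Co3 at -1.11 and mt-Rnr1 at -0.12. In the pairs it gave 1 protein gene higher and 11 lower (APC-KO tumor 1 against APC-WT tumor 1), 6 and 6 (APC-KO tumor 1 against APC-WT tumor 2), 2 and 9 (APC-KO tumor 2 against APC-WT tumor 1) and 7 and 5 (APC-KO tumor 2 against APC-WT tumor 2), and 1 rRNA gene higher in each.

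Scaled to the 13 protein genes, 1 protein gene was higher and 1 lower (median 0.56), 1 rRNA gene was higher (median 0.93) and 0 tRNA genes (median 1.52), and mt-Co1 (-0.10), mt-Atp8 (-1.25), mt-Atp6 (-0.76), mt-Co3 (-0.28) and mt-Cytb (-0.64) turned negative. With the length offset 11 protein genes were higher and 1 lower (median 1.76), and mt-Atp8 turned to -0.97. The medians of rRNA and tRNA genes were then 2.74 and 1.19 with 1 tRNA gene called, and 18 complex I and 5 complex IV partners were called higher. Of all genes tested with the offset, 28.4% were called higher and 21.4% lower. The rRNA median was 3.82 in limma-voom.

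Without each tumor in turn the median was 2.87 to 3.26 for protein, 3.11 to 3.96 for rRNA and 3.43 to 5.17 for tRNA genes, and 1 to 22 tRNA genes were called. The low counts, 2 and 1, came without APC-KO tumor 1 and without APC-KO tumor 2, which leaves 1 APC-KO tumor that is assumed to vary like the others. Without each replicate number 10 to 11 protein genes were called between the APC-KO tumors. The share of all genes called in those fits is not given here.

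As a percent of expressed-gene counts the members made up 0.133 and 0.189 in the APC-WT tumors and 1.08 and 1.31 in the APC-KO tumors. With the chromosome 1 copies added to the protein genes, in the same order, protein genes made up 77.7, 74.6, 68.2 and 71.8%, rRNA genes 21.6, 24.1, 29.1 and 25.7% and tRNA genes 0.673, 1.29, 2.65 and 2.43% of the sum.

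Replicate numbers do not pair the libraries: same-numbered libraries of 2 tumors correlated at -0.50 to 0.79 in their deviations, 9 of 36 over 0.1, and 3 of 24 libraries correlated best with their own number. A block on the library number left 11 protein genes called between the APC-KO tumors, and a block on the tumor number left 13 protein, 2 rRNA and 16 tRNA genes called between genotypes, with a protein median of 3.14. Over expressed nuclear genes, the log2 difference between tumor 1 and tumor 2 in APC-WT correlated at -0.41 with that in APC-KO. A crossed pairing, chosen after seeing the data, gave 13, 2 and 15 genes called. The share of all genes called with these blocks and this pairing is not given here, so these counts cannot be set against a background. DESeq2, no filter and size factors of DESeq2 changed no count of called protein or rRNA genes.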
